A study of Mus musculus with 9 samples.

Results

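The cells described here are the tumour-like cells of ovarian cancer ascites that carried transcripts of 5 genes of cell division. Ascites is fluid that builds up in the abdomen. A barcode was a member when it had 500 or more unique molecular identifiers (UMIs, each standing for 1 captured transcript), 200 or more genes and a mitochondrial share of 15% or less. It also needed at least 3 UMIs in all of Krt8, Krt18, Krt19, Wt1 and Upk3b, at most 1 UMI of C1qa, C1qb and C1qc, and at least 3 UMIs in all of Top2a, Birc5, Prc1, Cenpf and Cenpa. The last sum is called the marker sum. There were 228 such cells among 3660 tumour-like cells and 6442 barcodes that passed the cell filter. They were compared with tumour-like cells whose marker sum was 0 (2986 in all), from which 3 per proliferating cell were taken, nearest in total UMIs, which gave 684 depth-matched cells. The 446 tumour-like cells with a marker sum of 1 or 2 were in neither group.

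All of them came from 1 library of ascites from wild-type B6 mice with tumours of ID8-Def29/Vegf, a mouse ovarian cancer line named for a beta-defensin and for the growth factor Vegf. The labels give for this library no treatment, age or number of animals. The series also holds cultured ID8-Def29/Vegf cells, in 4 libraries given vehicle and 4 given the iron chelator deferiprone for 12 h. Their table could not be tied to the labels and was not used, so nothing below compares treatments. With 1 library there was no replicate, no test between conditions and no p-value, and every interval given is a 95% interval that covers counting error only. Levels are CPM (counts scaled to a fixed total of UMIs of the group), and compare cells for 1 gene, not genes with each other.

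A dividing cell copies its DNA in S phase, with helicase, polymerase and nucleotide-making enzymes that are transcribed mainly as the cell enters S phase. It then separates the copies in mitosis with kinetochore, spindle and chromosome-condensing proteins, whose transcripts peak in G2 and M phase and are destroyed or shut off afterwards. Top2a untangles the DNA copies, Birc5 (survivin) sits in the chromosomal passenger complex, Prc1 bundles the microtubules of the central spindle, Cenpf binds the kinetochore and Cenpa is the histone that marks the centromere. Iron-requiring enzymes lie on this path: ribonucleotide reductase needs an iron centre to make deoxynucleotides, and several DNA polymerases, primases and helicases carry iron-sulfur clusters.

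The choice rested on the marker sum, so its values describe the members and support nothing. In the 228 cells the sum ran from 3 to 45 UMIs, with quartiles at 5, 9 and 15. Just inside the limit, 21 cells had exactly 3 UMIs, and just outside it 64 cells had 2. Top2a was at 360 CPM and had a UMI in 76.3% of the members, Birc5 at 330 CPM in 84.6%, and Cenpa at 299.8 CPM in 70.2%. Prc1 was at 211 CPM in 59.2% and Cenpf at 221 CPM in 61.0%. All 5 genes were found together in 70 of the 228 cells, 4 of them in 45, 3 in 51, 2 in 56 and 1 in 6, so most members rested on several of the genes rather than on 1.

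**Figure D1:**
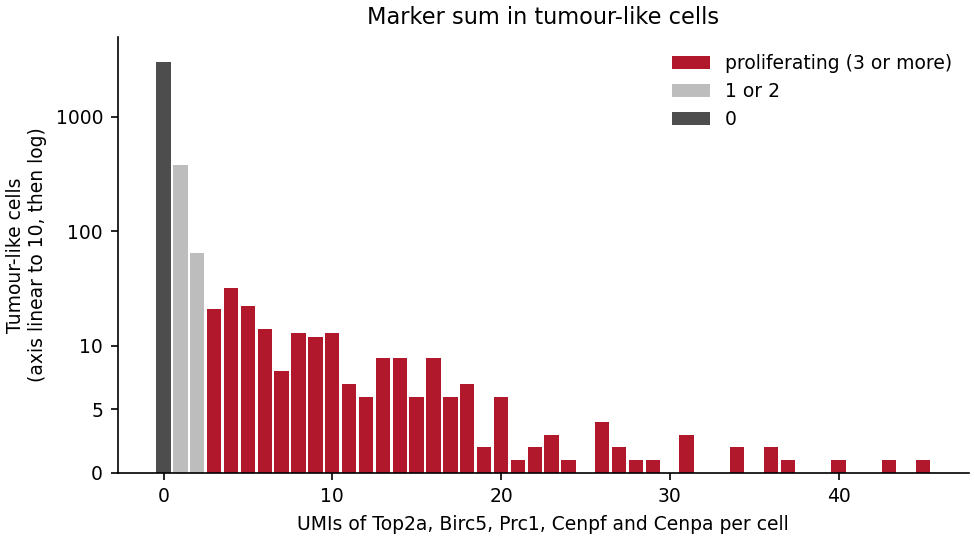
Number of tumour-like cells (vertical axis, linear to 10 and log above) at each marker sum in UMIs (horizontal axis). Of 3660 cells 2986 sit at 0, and the 228 members (red) form a long tail up to 45 UMIs with no gap at the limit of 3.

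Each of the 5 genes was also read in cells chosen by the other 4, so that its own UMIs did not choose the cells. Top2a was then at 352 CPM in the cells chosen, against 7.70 CPM in cells with none of the other 4. The share of cells with a Top2a UMI was 71.4% of 189 against 3.46% of 3093. Birc5 was at 329 against 6.06 CPM, Prc1 at 211 against 3.8, Cenpf at 216 against 2.86 and Cenpa at 293 against 7.38. The 5 genes were thus often found in the same cells. They were set together as the rule with earlier results of these data known, so these values are a description and support nothing. The groups read here were not matched for depth, and the part of depth in these values was not tested.

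The genes of the tumour-like gate were required of both groups, so their presence is no check of that label, and their levels are a description. Wt1, a transcription factor of ovarian surface and mesothelium, was at 442 CPM in members and 422 in depth-matched cells, and Upk3b at 320 and 301. Krt8 was at 145 and 128 and Krt18 at 496 and 530. Of these 5 genes Krt19 differed most, at 299.8 CPM in 78.5% of the members and 543 CPM in 92.5% of the depth-matched cells. Outside the gate, the mesothelial and urothelial genes Upk1b (41.0 and 35.3 CPM) and Krt7 (26.0 and 25.4 CPM) were found, Msln (mesothelin) was low in both groups (10.5 and 6.87 CPM), Epcam had 2 UMIs in the members and Cdh1 had none. No transcript of these lists separates the injected line from the host's own mesothelium, so the cells are called tumour-like only.

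Markers of other cells were mostly low, but not all lists were alike in both groups. The erythroid and dendritic cell lists, which were lower in members, are given further below. The 8 macrophage markers summed to 104 CPM in members, 112 CPM in depth-matched cells and 30513 CPM in barcodes with 3 or more C1q UMIs and none of the gate genes, here called C1q barcodes. In members, no macrophage marker was at 0, and the sum per cell ran up to 14 UMIs. T cell markers summed to 1.11 CPM in members and 1.14 in depth-matched cells, with Cd3d, Cd3e, Cd3g and Cd2 at 0 in members. B cell markers summed to 1.11 and 2.48 CPM. NK cell markers summed to 0.554 CPM in members and 0.191 in depth-matched cells, with Ncr1, Klrb1c, Gzma and Eomes at 0 in both. Endothelial markers summed to 2.77 CPM in members and 5.53 in depth-matched cells, a ratio whose interval (0.151 to 1.31) includes equality, with Cdh5 at 0 in both. Neutrophil markers summed to 8.31 CPM in members and 1.72 in depth-matched cells, a ratio of 4.84 (1.98 to 12.5). Of their 15 UMIs in members, 11 lay in 1 cell. Fibroblast markers, nearly all of them UMIs of Dcn, summed to 469 CPM in members and 385 in depth-matched cells, a ratio of 1.22 (1.12 to 1.32).

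Total UMIs per cell were set alike by the matching, with medians of 7607.5 in members (969 to 18845) and 7602 in depth-matched cells (961 to 19486). Members had a median of 2048 genes and 3.14% mitochondrial UMIs, against 2026 genes and 3.45%. Scrublet, which scores barcodes that look like 2 cells joined, marked 1 member and 6 depth-matched cells as doublets, and 89 of all 6442 barcodes (1.38%).

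Members made up 6.23% of the tumour-like cells (5.47 to 7.06%). This share climbed with the depth of the cells. It was 0.778% among cells of 500 up to 2000 UMIs, 2.47% from there up to 4000, 3.0% up to 6000, 8.56% up to 8000, 14.4% up to 10000 and 24.7% above. A fixed minimum of 3 UMIs is met more easily in a deeper cell, so each cell was also thinned at random to 2000 UMIs, leaving out 257 shallower cells. The share was then 3.35% (2.77 to 4.01%, 114 of 3403 cells), against 6.64% of the same cells unthinned. After thinning it was 1.91%, 1.83%, 4.55%, 6.63% and 8.22% in the same bins from 2000 UMIs up. Cells that kept 3 or more marker UMIs after thinning had a median of 7168.5 UMIs before it, against 5161 for cells left with none. The deeper cells thus held more members even when every cell was read at 1 depth.

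**Figure D2:**
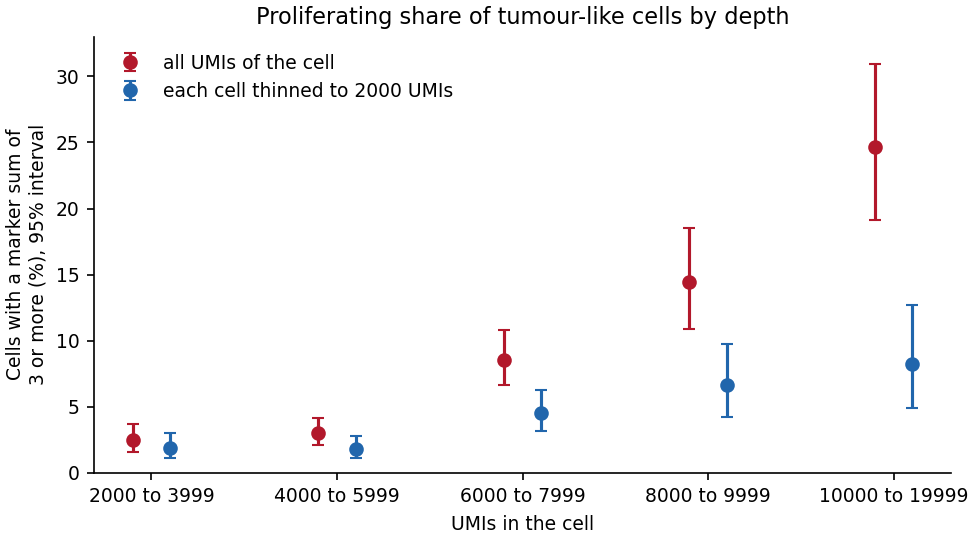
Percent of tumour-like cells with a marker sum of 3 or more (vertical axis) by UMIs in the cell (horizontal axis), with exact 95% intervals. With all UMIs (red) the share goes from 2.47% to 24.7%, and with each cell thinned to 2000 UMIs (blue) from 1.91% to 8.22%.

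For background, C1q barcodes met the same marker minimum in 9 of 857 cases (1.05%), at a median of 1633 UMIs against 5007 for the tumour-like cells. Thinned to 2000 UMIs, with 608 shallower barcodes left out, the share in C1q barcodes was 2.81% (1.14 to 5.71%, 7 of 249), an interval that includes the tumour-like value of 3.35%. Thinning did not match the depth that cells had before it, which ran up to 5459 UMIs in C1q barcodes and 19486 in tumour-like cells. The thinned share of tumour-like cells climbed with that depth. It was 1.91% in those of 2000 up to 4000 UMIs and 1.83% up to 6000, below 2.81% but inside the C1q interval. Whether the share differs between these 2 kinds of cell was thus not settled. C1q barcodes are not a class without dividing cells, since macrophages can divide.

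Across 4077 genes with a mean of at least 20 CPM over both groups, the genes of the rule, the gate and C1q left out, 127 (3.12%) were at least 2-fold higher in members and 32 (0.785%) at least 2-fold lower. The fold is taken after adding 5 CPM to each level, which makes folds of low genes smaller. The median gene had a log2 ratio of 0.01. There were 53 genes at 4-fold or more in the higher direction and 0 in the lower. Of the 32 lower genes, 4 were haemoglobin genes, whose UMIs in the depth-matched cells lay mostly in 13 cells, as given further below. Of the 127, 78 belonged to the gene lists drawn up for this comparison, and 71 were under 20 CPM in the depth-matched cells. A gene that passed the level minimum only through the members had to be higher in them, so the counts per list below describe the lists and are no further support for them.

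**Figure D3:**
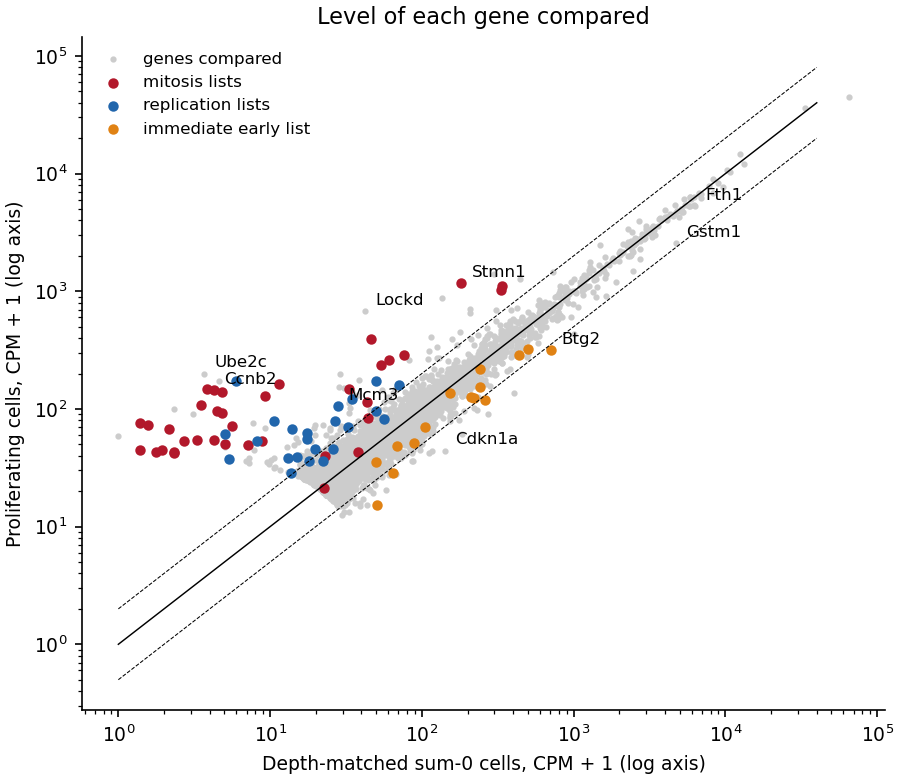
Level of each of 4077 genes in members (vertical axis) and in depth-matched cells with a marker sum of 0 (horizontal axis), in CPM plus 1 on log axes, with a line of equality and dashed lines at 2-fold. Genes of the 3 mitosis lists (red) lie far above the line at the left, replication genes (blue) nearer to it, and most immediate early genes (orange) below it.

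Promoters are shown first for 5 genes that the results turn on, because many genes of mitosis are known to be bound by the DREAM complex and by NF-Y at a short element called CHR and at CCAAT boxes. The sequences are the 150 bases before the RefSeq start of each gene on its own strand (GRCm38.p6), read 5′ to 3′. Capitals mark matches to TTTGAA (the CHR) and to CCAAT on either strand, so that TTCAAA and ATTGG are the same elements on the other strand. Top2a is one of the genes of the rule, Cdk1 (the kinase that drives mitosis), Cdc20 (which activates the anaphase-promoting complex) and Ccnb2 (cyclin B2) stand for mitosis, and Mcm3 (a subunit of the replicative helicase) for DNA replication. The windows are chr11:99024190-99024339 for Top2a, chr10:69352913-69353062 for Cdk1, chr4:118437344-118437493 for Cdc20, chr9:70421555-70421704 for Ccnb2 and chr1:20820313-20820462 for Mcm3, each on the minus strand.
Top2a: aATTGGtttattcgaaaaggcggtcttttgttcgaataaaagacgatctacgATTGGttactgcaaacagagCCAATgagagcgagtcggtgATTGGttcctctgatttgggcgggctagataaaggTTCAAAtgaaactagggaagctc
Cdk1: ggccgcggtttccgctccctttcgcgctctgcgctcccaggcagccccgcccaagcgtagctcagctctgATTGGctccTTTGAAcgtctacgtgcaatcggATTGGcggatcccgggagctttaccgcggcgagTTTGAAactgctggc
Cdc20: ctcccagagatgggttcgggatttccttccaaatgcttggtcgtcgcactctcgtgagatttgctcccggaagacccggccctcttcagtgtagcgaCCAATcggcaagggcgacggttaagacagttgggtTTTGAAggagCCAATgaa
Ccnb2: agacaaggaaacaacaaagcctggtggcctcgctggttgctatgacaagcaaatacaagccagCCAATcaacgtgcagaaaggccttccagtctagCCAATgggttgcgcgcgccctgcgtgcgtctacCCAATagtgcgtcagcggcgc
Mcm3: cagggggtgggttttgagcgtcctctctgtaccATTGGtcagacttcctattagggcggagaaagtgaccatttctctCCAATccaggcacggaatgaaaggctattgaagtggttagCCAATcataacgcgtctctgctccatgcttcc

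In these windows Top2a had 4 CCAAT matches and 1 CHR match, Cdk1 had 2 and 2, Cdc20 had 2 and 1, and Ccnb2 and Mcm3 had 3 CCAAT matches each and no CHR match. Ccnb2 did have 1 CHR match further out, within the 250 bases before its start. The windows end at the start, so a match across or after it was not counted. The genes printed do not stand for all. Of the 5 genes of the rule, only Top2a had a CHR match in the 250 bases before its start, 4 had a CCAAT match and Birc5 had neither. Of other genes with wide differences, Ube2c had both elements there, Cdca3 had CCAAT only and Nusap1 had neither. Over 250 bases before the start, CCAAT was found in 67.7% of 65 promoters of the mitosis lists, 59.1% of 44 promoters of the replication lists, 37.9% of 3166 promoters of the genes compared and 34.5% of all 27025 promoters. TTTGAA was found in 27.7%, 13.6%, 9.63% and 16.3% of them in the same order. CCAAT was also common in the genes lower in members. It was found in 64.9% of 97 promoters of genes at least 2-fold higher and in 54.5% of 22 promoters of genes at least 2-fold lower. TTTGAA was found in 21.6% and 0% of these. GCGGGAA, a form of the site bound by E2F factors, was found in 6.15% of the mitosis, 22.7% of the replication and 7.17% of the compared promoters, and in 3.84% of all. Matches on both strands count, each motif was searched on its own, and a match is a run of letters that was not tested as a binding site.

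The kinases and cyclins of mitosis were among the genes with the widest difference. Cdk1 was at 91.4 CPM in members and 3.82 CPM in depth-matched cells, and had a UMI in 46.1% and 2.78% of the cells. Ccnb2 was at 144 and 3.24 CPM, a ratio of 44.3 (27.1 to 77.1). Aurkb, the kinase of the chromosomal passenger complex, was at 43.8 CPM in members and had only 2 UMIs in the depth-matched cells, a ratio of 115 (30.7 to 964). Plk1, which triggers mitotic entry and spindle assembly, had 43 UMIs in members and 0 in depth-matched cells. Set against 3 UMIs over the group, the limit that a count of 0 allows, the level of Plk1 was 41.6-fold higher. That fold leaves out the counting error of the members. Of the 22 genes in the list of mitotic cyclins and kinases, 7 reached the level minimum, of which 6 were at least 2-fold higher and 0 lower, with a median log2 ratio of 2.99. The exception was Wee1, the kinase that holds Cdk1 inactive, at 20.5 and 21.7 CPM.

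Genes of the centromere and of the spindle stood at like ratios. Sgol1 (shugoshin, which guards centromeric cohesin) was at 138 CPM in members and 3.82 in depth-matched cells, and Cdca8 (borealin, a partner of Birc5) at 106 and 2.48. Cenpw, a subunit of the inner kinetochore, was well detected in both groups (237 and 52.5 CPM), a ratio of 4.51 (3.87 to 5.27). In the list of centromere and kinetochore genes, 11 of the 13 compared were at least 2-fold higher, and Bub3 and Zwint were not, at 1.94-fold and 1.14-fold. Nusap1, which bundles spindle microtubules, was at 147 and 2.86 CPM, and Tpx2, which activates Aurora A on the spindle, at 67.0 and 1.14. Tubulins and their regulators were abundant in both groups and also higher in members. Tubb5 was at 1100 and 337 CPM, Tuba1b at 1033 and 329, and the microtubule destabiliser Stmn1 at 1164 and 181 CPM, a ratio of 6.44 (5.97 to 6.97). In the spindle list 15 of 16 genes compared were at least 2-fold higher, with Kif22 as the exception at 1.77-fold.

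The anaphase-promoting complex is the ubiquitin ligase that ends mitosis, and its partners differed more than its core. Ube2c, its ubiquitin-conjugating enzyme, had the highest log2 ratio of all genes compared (4.73), at 198 CPM in members and 2.67 in depth-matched cells, with up to 14 UMIs in a member and at most 1 in a depth-matched cell. Cdca3 was at 172 and 3.62 CPM and Cdc20 at 89.8 and 2.10. Core subunits were nearer to equal, with Anapc11 at 388 and 209 CPM, Anapc5 at 94.8 and 50.7, and Anapc13 at 525 and 504. Pttg1 (securin), which the complex destroys to release the sister chromatids, stood the other way round from other mitotic genes. It was at 67.0 CPM in members and 105 in depth-matched cells, 1.56-fold lower (1.28 to 1.92), and had a UMI in 38.2% and 50.3% of the cells. How reads shared between Pttg1 and any near-identical copy were counted is not stated.

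Abundant chromatin proteins were found in most cells of both groups and at higher levels in the members. The histone variant H2afz was found in 98.7% of members and 82.0% of depth-matched cells, at 1391 CPM in members and 299.7 CPM in depth-matched cells, and H2afv at 1268 and 445. Hmgb2, a DNA-bending protein of proliferating cells, was at 873 and 134 CPM, a ratio of 6.53 (5.97 to 7.15). Mki67, the antigen behind the Ki-67 stain, was at 69.8 CPM in members and had 3 UMIs in depth-matched cells, a ratio of 122 (40.8 to 599). It had a UMI in 87 of the 228 members (38.2%), fewer than the rule's own genes. In the list of condensin, cohesin and mitotic chromatin genes, 19 of 25 compared were at least 2-fold higher and none lower. Of the 20 replication-dependent histones, only Hist1h2ap reached the level minimum, at 198 and 28.0 CPM. Such histone transcripts lack a poly(A) tail and are poorly caught by poly(A) capture.

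Genes of DNA replication were mostly higher by smaller ratios, and the depth-matched cells also held them. Those cells had to lack every UMI of the 5 genes of the rule, while no limit was set on replication genes. The choice of cells thus favoured wider ratios for mitosis than for replication. Mcm3 was at 105 CPM in members and 27.1 in depth-matched cells, a ratio of 3.87 (3.09 to 4.84), and Pcna, the sliding clamp, at 54.3 and 16.4. Dut, which removes dUTP, was at 172 and 48.8 CPM, and Lig1, which joins Okazaki fragments, at 120 and 33.4. Tyms and Tk1, which make thymidine nucleotides, were at 52.1 and 7.25 CPM and at 59.8 and 4.01. 2810417H13Rik (Pclaf, a partner of Pcna) was the outlying gene of the list, at 173 and 4.96 CPM. In the DNA synthesis list 11 of 15 genes compared, and in the list of origin licensing and firing 6 of 8, were at least 2-fold higher and 0 lower, with medians of 1.44 and 1.37 on the log2 scale. A further 87 genes of the replication and mitosis lists, here with those of the anaphase-promoting complex and of mitotic chromatin, were under the level minimum. They summed to 1476 CPM in members and 226 in depth-matched cells, and 85 of them were higher in members. The share of all genes under the level minimum that were higher is not given here. That count is thus a description and no support for the lists.

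**Figure D4:**
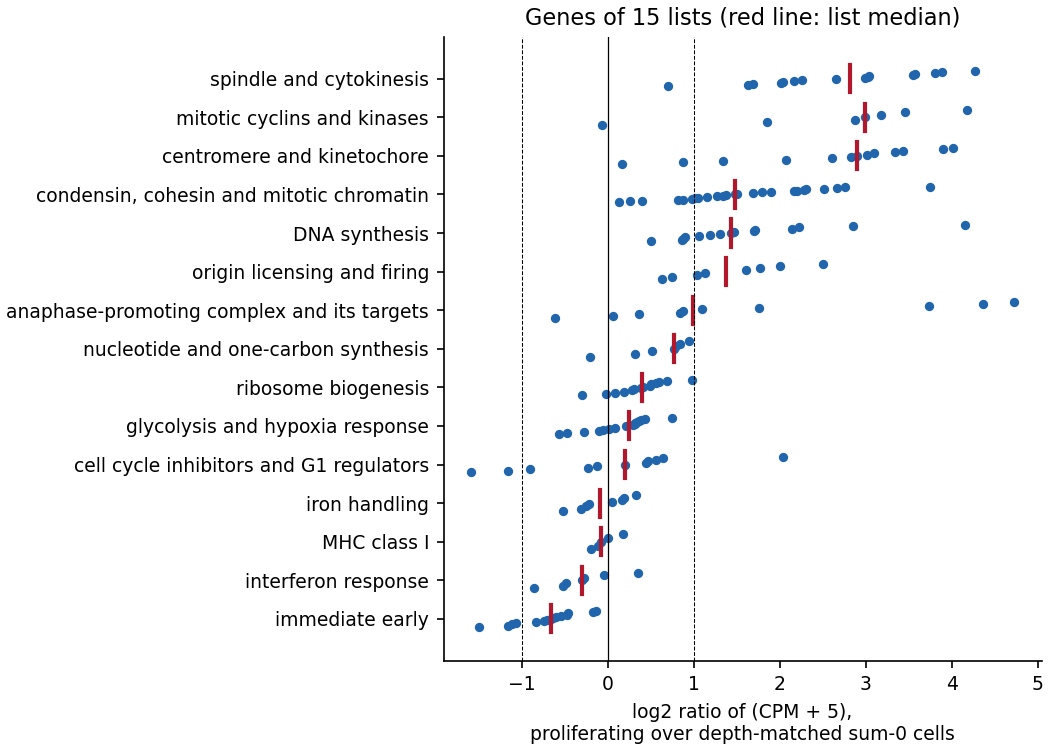
Log2 ratio of (CPM + 5) between members and depth-matched cells (horizontal axis) for the compared genes of 15 lists (vertical axis), with each list's median as a red line, a solid line at 0 and dashed lines at 2-fold. Mitosis lists have medians near 3, replication lists near 1.4, and the immediate early list is the only one shown with all its compared genes below 0.

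Outside the lists, the highest ratios belonged to Cdkn3, Lockd and Iqgap3. Cdkn3, a phosphatase of Cdk1 and Cdk2, was at 98.1 and 1.34 CPM. Iqgap3, a scaffold of the cell cortex, had 105 UMIs in members and 0 in depth-matched cells, at least 102-fold more. Lockd, a long noncoding RNA whose locus (chr6:134929092-134956798, GRCm38) lies next to Cdkn1b, was the most widespread of them. It was at 678 CPM in members and 41.0 in depth-matched cells, a ratio of 16.5 (14.3 to 19.2), and had a UMI in 94.7% and 24.1% of the cells. Its neighbour Cdkn1b, the inhibitor p27, was at 48.2 and 41.4 CPM, a ratio of 1.16 (0.897 to 1.5). The others of the 10 highest were Fam111a, Lsm2, Tcf19, Gas2l3, G2e3, Pmf1 and Cmc2, at log2 ratios of 1.69 to 2.29.

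Sets of genes, 13 of mitosis and 19 of replication, were summed per cell to place the members within the cycle. Both were chosen after the files had been seen and hold none of the genes of the rule. The mitosis set was at 1102 CPM in members (1054 to 1152) and 21.6 CPM in depth-matched cells, with a median of 6 UMIs per member and a range from 0, in 6 cells, to 42. At least 3 UMIs of it were found in 77.2% of the members and in 0.439% of the depth-matched cells. The replication set was at 971 CPM (926 to 1017) in members and 242 CPM in depth-matched cells. At least 5 UMIs of it were found in 64.9% of members and 9.36% of depth-matched cells.

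Grouped by marker sum, these sets went in opposite directions inside the 228 cells. The marker sum is that of the rule and counts genes of cell division. The grouping itself thus favours a climb of the mitosis set, and the values are a description. In the 53 cells with a marker sum of 3 or 4 the mitosis set was at 401 CPM, and it was at 632 in 69 cells with 5 to 9, 1348 in 74 cells with 10 to 19 and 2249 in 32 cells with 20 or more. The replication set went the other way, from 1116 through 1085 and 906 to 731 CPM. Between the last and the first of these groups the ratio was 5.61 (4.68 to 6.76) for mitosis and 0.655 (0.553 to 0.774) for replication, while median UMIs per cell went from 6186 to 9170.5. Ube2c went from 36.5 to 503 CPM and Mki67 from 19.6 to 139, while Pcna went from 75.7 to 33.1 CPM and Lig1 from 123 to 69.5. Other replication genes read singly did not clearly differ. For Mcm3, Rrm2, Dut, Tyms and Tk1 the interval of the ratio includes equality. Those ratios ran from 0.688 (0.416 to 1.12) for Mcm3 to 1.18 (0.591 to 2.35) for Tk1. Both sets were high in 113 members (3 or more mitosis and 5 or more replication UMIs). Another 63 were high for mitosis only, 35 for replication only and 17 for neither.

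**Figure D5:**
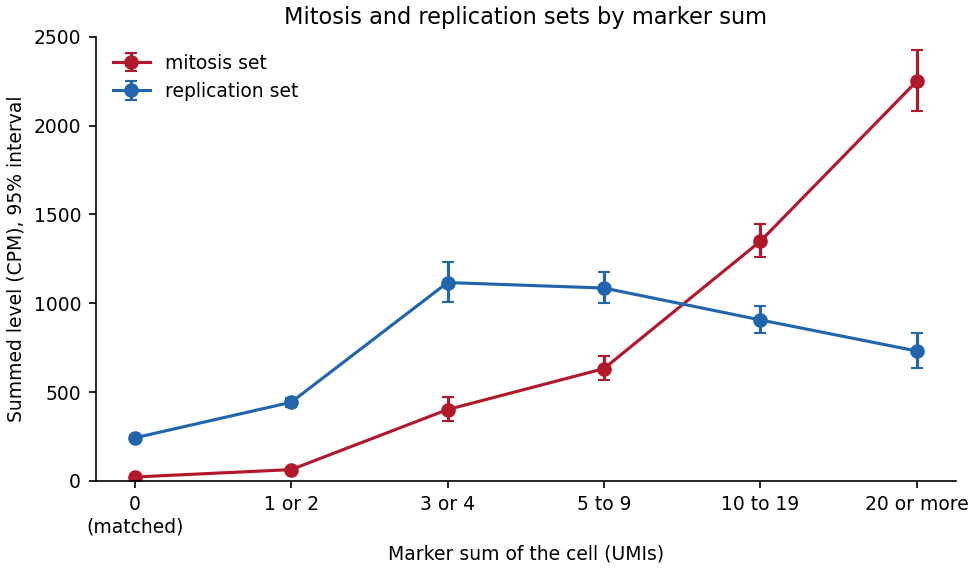
Summed level in CPM with exact 95% intervals (vertical axis) of the mitosis set (red, 13 genes) and the replication set (blue, 19 genes) by marker sum of the cell (horizontal axis). The mitosis set climbs from 21.6 to 2249 CPM, while the replication set is at 1116 CPM in cells with a sum of 3 or 4 and at 731 in those with 20 or more.

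Members without Top2a differed from the rest in which mitotic genes they held. Of the 228 cells, 54 had no Top2a UMI. Their level of Cenpa, 440 CPM, was above the 264 CPM of the 174 members with Top2a, a direction that the rule favours since the sum had to be reached without Top2a. The same choice can also shift genes outside the rule that vary with its genes. How far it did so was not tested, and the values are a description. Genes outside the rule went both ways. Cdc20 was at 158 and 72.4 CPM, 2.18-fold higher without Top2a, and Ccnb2 at 204 and 128. By contrast Ube2c was at 76.1 against 230 CPM, Cdk1 at 35.3 against 106, Mki67 at 38.0 against 78.0 and the replication set at 742 against 1029. Median depth was 6550 UMIs without Top2a and 7997.5 with it, and the part of this in the differences was not tested.

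The rule did not gather all cells with a high replication set. Among the 2986 tumour-like cells with a marker sum of 0, 127 (4.25%) had at least 5 UMIs of it. By that choice their replication set was at 897 CPM, near the 971 of the members, but their mitosis set was at 44.5 CPM, against 1102 in the members. Stmn1 was at 423 CPM in these cells and H2afz at 519, between the depth-matched cells and the members. Cdkn1a was at 50.5 CPM in them and 114 in the other cells with a marker sum of 0. Their median depth was 7360 UMIs, so a fixed minimum also favoured deep cells here.

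Among regulators of the cell cycle that act before S phase, the members differed at few genes. Cdk4 was at 242 CPM in members and 163 in depth-matched cells, its partner cyclin D1 (Ccnd1) at 111 and 80.1, and Cdk6 at 154 and 110. These were ratios of 1.38 to 1.49. Cdkn2d, an inhibitor of Cdk4 and Cdk6, was the one gene of this list at least 2-fold higher, at 43.8 and 6.87 CPM, and within the members it went from 11.2 CPM at a marker sum of 3 or 4 to 99.2 CPM at 20 or more. Cdkn2a, which encodes p16 and p19Arf, had no UMI in either group, which allows up to 3 UMIs in each.

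Cdkn1a, the p53-induced inhibitor p21, had the lowest log2 ratio of all genes compared (-1.59). It was at 43.2 CPM in members and 140 in depth-matched cells, 3.24-fold lower (2.57 to 4.15). Yet the share of cells with a Cdkn1a UMI was nearly the same, 21.9% and 23.5%, and the difference lay in cells with many. At least 5 UMIs were found in 2 members (0.877%) and in 53 depth-matched cells (7.75%), with a highest count of 7 and 40. Those 53 cells held 512 of the 735 Cdkn1a UMIs of the depth-matched cells, and outside such cells the levels were 37.0 and 46.6 CPM. The limit of 5 UMIs was chosen after the values were seen. Other genes of the p53 target list differed by less. Phlda3 was at 18.3 and 30.7 CPM, Ccng1 at 11.6 and 26.1, and Mdm2 at 9.42 and 15.8, while Bax was at 158 in both groups and Aen at 14.4 and 12.97, a ratio of 1.11 (0.678 to 1.77).

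Btg2, an antiproliferative gene counted here among cell cycle inhibitors and immediate early genes, differed in most cells. It was at 316 and 710 CPM, 2.25-fold lower in members (2.06 to 2.46), with a UMI in 76.8% and 94.6% of the cells and medians of 2 and 5 UMIs per cell. All 15 immediate early genes that were compared, transcription factors and feedback genes switched on within minutes of stimulation, were lower in members, by a median of -0.66 on the log2 scale, and 4 of them (Btg2, Fosb, Zfp36 and Ier2) were at least 2-fold lower. Fos was at 320 and 501 CPM, Jun at 122 and 221, and Fosb at 14.4 and 49.8. Fos had a UMI in 74.6% and 86.4% of the cells.

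Of 17 genes of ovarian surface and mesothelial identity, 8 were compared, 7 of them within 2-fold and 5 higher in members, with a median log2 ratio of 0.07. The gene at least 2-fold lower was Igfbp5. Igfbp5, a binding protein of insulin-like growth factors, was at 42.7 and 115 CPM, with a UMI in 21.5% and 40.8% of the cells. Star, which delivers cholesterol for steroid synthesis, was at 41.0 and 110 CPM in 22.4% and 52.5%, and the Notch target Hes1 at 96.4 and 230 CPM. In the same list as Igfbp5, Amhr2, the receptor of anti-Müllerian hormone, was at 363 and 583 CPM. The complement gene C3 was at 94.2 and 189 CPM. Also in that list, Vim, the mesenchymal filament vimentin, was higher in members, at 668 and 499 CPM. Beyond Star and Hes1, the 10 lowest genes outside the lists were Dbp, Dcxr, Aox3, Hotairm1, Zfp467, Kdm5b, Sat2 and Tmem86a, at log2 ratios of -1.29 to -1.10.

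Members were spread over the 5 expression programs that earlier results of these data had named in tumour-like cells, with the widest difference in the Gstm program. The glutathione transferases Gstm1 and Gstm2, which join glutathione to reactive compounds, were at 2554 and 4711 CPM and at 1195 and 1913 CPM. With Gm26532 the program summed to 3768 CPM in members and 6681 in depth-matched cells, 1.77-fold lower (1.73 to 1.82), at medians of 21 and 44 UMIs per cell. It was still present in nearly every member, with 3 or more UMIs in 95.6% and 98.4% of the cells. The program of Wfdc18, Gng13 and Sncg was found in 28.9% of members (23.2 to 35.3%) and 20.03% of depth-matched cells (17.1 to 23.2%), but Sncg itself had 3 UMIs in members and 68 in depth-matched cells, a ratio of 0.128 (0.0258 to 0.391). The program of Defb19 and Defb36 was found in 26.8% (21.1 to 33%) and 34.5% (30.9 to 38.2%). For the programs of Lgals2 and C3 (65.8% and 68.9%) and of Abhd2, Pam and Spry2 (31.1% and 29.8%), each share lay within the other's interval.

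Iron chelation is named in the title of the study, so genes of iron handling and of iron-requiring DNA enzymes were read in the members. None of the 8 iron handling genes compared was 2-fold higher or lower. Ferritin heavy chain (Fth1) was at 5280 CPM in members and 6302 in depth-matched cells, 1.19-fold lower (1.17 to 1.22), and ferritin light chain (Ftl1) at 2908 and 2815. Trf, the plasma iron carrier transferrin, was at 672 and 783 CPM, and Tfrc, its receptor, at 22.7 and 16.4 CPM, a ratio of 1.38 whose interval (0.930 to 2.03) includes equality.

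The 14 iron-dependent enzymes of DNA synthesis and repair were each under the level minimum, and together were at 132 CPM in members and 57.4 in depth-matched cells, a ratio of 2.31 (1.94 to 2.74). Rrm2, the iron-bearing subunit of ribonucleotide reductase, had 44 UMIs in members and 4 in depth-matched cells, or 24.4 and 0.763 CPM. Rrm2b, its p53-induced form, was at 7.20 and 12.4 CPM, a ratio whose interval (0.294 to 1.06) includes equality. Brip1, a helicase with an iron-sulfur cluster, was at 16.6 and 1.14 CPM, and Pold1 and Pole, polymerases with such clusters, at 14.4 and 4.77 and at 9.42 and 1.72 CPM. These do not stand for every such enzyme. Nthl1, a gene of DNA repair, was at 11.6 and 13.7 CPM, a ratio whose interval (0.495 to 1.39) includes equality.

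Innate immune control is named there too, and NK cells read ligands on tumour cells. Of the NK ligand genes, 9 were in the matrix and together were at 109 CPM in members and 127 in depth-matched cells, a ratio of 0.860 (0.730 to 1.01). Most of these UMIs were of Pvrl2, a ligand of DNAM-1, at 80.3 and 96.5 CPM. Pvr was at 18.3 and 20.2 CPM, the NKG2D ligand Raet1e at 3.88 and 7.06, and H60b had no UMI in either group. MHC class I, which restrains NK cells, was nearly the same, with B2m at 253 and 267 CPM and H2-K1 at 43.8 and 43.7.

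Growth-related lists shifted slightly. None of the 14 ribosome biogenesis genes or the 7 nucleotide and one-carbon genes compared reached 2-fold with the 5 CPM added, but 12 and 6 of them were higher in members, with medians of 0.40 and 0.77 on the log2 scale. Nop58 was at 77.6 and 37.0 CPM and Psat1, an enzyme of serine synthesis, at 50.4 and 23.8, both just over 2-fold before the 5 CPM were added. Phgdh, which starts that path, was at 87.5 and 102 CPM. Myc was at 35.5 and 44.6 CPM, a ratio whose interval (0.593 to 1.05) includes equality. Of 16 glycolysis and hypoxia genes and 9 genes of the NRF2 and ferroptosis list none reached 2-fold with the 5 CPM added (Txnrd1 was nearest, at 43.2 and 19.6 CPM), and Gpx4, which detoxifies lipid peroxides, was at 1282 and 1194 CPM.

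The erythroid and dendritic cell marker lists were lower in the members. Erythroid markers were at 720 CPM in members and 1874 in depth-matched cells, but 8412 of 9810 haemoglobin UMIs of the depth-matched cells lay in 13 cells with 20 or more, and 2 members were such cells. Outside these cells haemoglobin was at 234 and 273 CPM. Dendritic cell markers, which are mostly MHC class II genes and Cd74, were at 426 and 762 CPM, with Flt3 at 0 in both groups, and were found in 65.4% and 77.8% of the cells at up to 106 and 125 UMIs. The part of cell-free RNA or of other cells in this difference was not tested.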

How the data were processed

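For the ascites library, made by 10x Genomics, the authors deposited raw UMI counts for 27998 genes in 737280 barcodes, with no selection of cells. Aligner and genome build: not given in the sources used here. The 8 columns of the bulk table match no sample label and were not used.

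Cells were filtered and chosen as given in the opening, and doublets were scored but not removed. UMIs were summed over members and over depth-matched cells and divided by all UMIs of the group (CPM). Intervals are exact (Poisson for levels, conditional binomial for ratios, Clopper-Pearson for shares; 95%) and cover counting error only. A gene was called at a log2 ratio of at least 1 or at most -1 with 5 CPM added and a mean of at least 20 CPM. No p-value was computed, because cells of 1 library are not replicates. The comparison was tested on simulated counts.

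The members and the 38 gene lists were chosen with earlier results of these data known. Genes named are those of the rule and gate, list genes with at least 20 UMIs and, outside the lists, the 10 highest and 10 lowest ratios; genes at lower counts belong to the lists. Msln, Epcam, Cdh1 and the markers of other cells are given whatever their counts, apart from genes that are not reported here. Positions are from GENCODE M21 (GRCm38), promoters from RefSeq. Alternatives were other cell and marker minimums, thinning, other matching, other added CPM and level minimums, centring, and removal of doublets. Tools were Python 3.11.15, numpy 2.4.6, scipy 1.17.1, pandas 2.3.3, scanpy 1.11.5, anndata 0.12.19 and matplotlib 3.10.9.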

Additional observations from a re-analysis of the deposited data

Results flagged for a closer look

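Outside the tumour-like gate, 41 of 2782 passing barcodes (1.47%) also had a marker sum of at least 3 UMIs, a signal in barcodes that the comparison does not use. Their mitosis set was at 1606 CPM (1416 to 1815), and their median depth was 2630 UMIs. Of the 41, 14 had 3 or more C1q UMIs and under 3 UMIs of the gate genes (mitosis set at 2615 CPM), 7 had 3 or more gate UMIs with 2 or more C1q UMIs (926 CPM), and 20 had under 3 of both (1664 CPM). Scrublet marked 2 of the 41 as doublets.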

How the results depend on the processing

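The share of members among tumour-like cells, 6.23%, was 4.78% with a minimum of 5 marker UMIs and 3.35% with cells thinned to 2000 UMIs, both of which ask more of a cell. The 127 genes at least 2-fold higher became 55 with a level minimum of 50 CPM and 297 with no level minimum. The 32 genes at least 2-fold lower became 98 after thinning, 12 with 20 CPM added, 16 with a level minimum of 50 CPM and 57 with none. A higher level minimum tests fewer genes, and the cause of the change after thinning was not tested. The other settings gave 93 to 174 higher and 26 to 47 lower. Of 193 genes and lists named and at least 2-fold different, all 193 kept their direction in the 13 settings that gave each a value, and 115 (20 CPM added) to 193 stayed at least 2-fold. The settings without cells of 20 or more haemoglobin UMIs, and with depth-matched cells of under 5 replication UMIs, were chosen after seeing the data. No paired analysis was possible because the ascites has 1 library and the bulk columns match no label. Depth limits what single cells show: a gene at 50 CPM has less than 1 UMI in a typical member, so a count of 0 in a cell does not show that the gene was off. Depth and library cannot be told apart from other properties of this 1 sample.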
